A study of Mus musculus with 18 samples.

Results

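The respiratory chain and ATP synthase genes were taken by symbol from the count table of the series. Nuclear genes had symbols beginning Nduf followed by a, b, c, s or v and a digit, or Uqcr, Cox4 to Cox8 or Atp5, without pseudogene names ending in -ps. Mitochondrial genes were the mt-Nd, mt-Co, mt-Cytb and mt-Atp genes. Together they were 100 of 55416 genes, 87 nuclear and 13 mitochondrial, and 92 (79 nuclear and all 13 mitochondrial) were among the 17040 genes with enough counts to be tested. The 8 that were not tested were Cox4i2, Cox7b2, Cox8b, Cox8c, Ndufa4l2, Ndufa11b, Ndufb4c and Ndufb11b. The symbols fell into complexes I, III, IV and V. Ndufa4, now known as a complex IV subunit, was counted with complex I by its symbol, and Ndufab1, a complex I subunit, is not matched by the rule. Atp5o stands in the table as 2 gene models, both kept.

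The RNA came from splenic monocytes, obtained by cell sorting on day 3 after mice received IVIg, an intravenous preparation of immunoglobulin G pooled from donors, or PBS, a saline buffer, as control. Wild-type animals (WT, C57BL/6), Dectin-1-/- animals and FcgRIIb-/- animals each received either agent, giving 6 groups of 3 libraries, each from its own mouse according to the series' design text. Codes in the titles, whose meaning is not given, are shared by Dectin-1 knockout PBS replicates 2 and 3, by FcgRIIb knockout PBS replicates 1 and 2, and by WT IVIg replicate 3 with FcgRIIb knockout PBS replicate 3. The ages of the mice, the knockout alleles and the genetic background of the knockouts are not given in the sources used here. The title of the series names the part of Dectin-1, a receptor for beta-glucan, and of FcgRIIb, the inhibitory Fc gamma receptor, in the response of monocytes to IVIg as its question.

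Complexes I, III and IV pass electrons from NADH to oxygen through ubiquinone and cytochrome c and pump protons across the inner mitochondrial membrane, and complex V, the ATP synthase, uses the proton gradient to make ATP. Most subunits are encoded in the nucleus, each in its own gene with its own promoter. The mitochondrial genome encodes the remaining core subunits of complexes I, III, IV and V and is transcribed by its own polymerase as long polycistronic RNAs, so the complexes need products of both genomes. In monocytes and macrophages, use of the respiratory chain against glycolysis is known to change with activation.

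Total counts lay between 16996494 and 48958909 in 17 libraries, while FcgRIIb knockout PBS replicate 2 held 719494. Clec7a, the Dectin-1 gene, stood at 0.247 to 4.05 CPM (counts per 1000000 counts, scaled by TMM) in the 6 Dectin-1 knockout libraries and at 360 to 956 CPM in the other 12. For Fcgr2b the 6 FcgRIIb knockout libraries (130 to 250 CPM) overlapped the 12 others (208 to 318 CPM), and the deleted part of the gene is not given. Monocyte markers (Csf1r, Lyz2, Itgam, Cd68, Fcgr1, Ccr2, Ly6c2, Cx3cr1 and Nr4a1) summed to 21308 to 43365 CPM. NK cell markers (Ncr1, Klrb1c, Gzma and Prf1) summed to at most 11.7 CPM, with 1 library at 0, and red pulp macrophage markers (Vcam1, Spic, C1qa, C1qb and Hmox1) to 125 to 217 CPM. WT PBS replicate 3 and WT IVIg replicate 1, named in an earlier analysis of these data as the most alike pair of WT libraries, had the lowest nuclear respiratory chain levels of the 18, at -0.63 and -0.65 on the relative log2 scale defined below. Of all counts, nuclear members held 0.562% to 1.29% and mitochondrial members 0.440% to 1.91%, depending on the library.

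Per kilobase of the deposited gene length, Cox4i1, a regulatory subunit of complex IV, was the most abundant nuclear member on average, at 365 CPM per kb. The highest of the other complexes were Atp5a1 (237 CPM per kb), which encodes the alpha subunit of the catalytic head of ATP synthase, Uqcrh (147 CPM per kb), the hinge protein of complex III, and Ndufa1 (125 CPM per kb), a small membrane subunit of complex I. The lowest tested were Cox6a2 (0.276 CPM per kb), Ndufs6b (1.89 CPM per kb), Atp5l (6.995 CPM per kb) and Uqcrq (40.3 CPM per kb). Several subunits of complex IV have a ubiquitous gene and a tissue-restricted one, and the ubiquitous gene had the higher level. Cox6a1 stood at 176 CPM per kb against 0.276 for the heart and muscle gene Cox6a2, Cox6b1 at 182 against 3.04 for the testis gene Cox6b2, and Cox7a2 at 61.1 against 0.562 for the muscle gene Cox7a1. Cox7a2l, a related gene that the rule also matches and that is not counted in this pair, stood at 237 CPM per kb. Cox4i1 exceeded Cox4i2 (0.0262 CPM per kb), and Ndufa4 at 72.4 CPM per kb exceeded Ndufa4l2 (0.00149 CPM per kb). No count was recorded for Cox7b2, Cox8b, Cox8c and Ndufb11b in 609251198 counts, which allows up to 0.00492 CPM each, while Cox7b stood at 64.99 and Cox8a at 202 CPM per kb. The 3 genes for subunit c of the ATP synthase ring were Atp5g3 (59.4 CPM per kb), Atp5g2 (16.6 CPM per kb) and Atp5g1 (7.92 CPM per kb). The deposited length is the union of a gene's exons, and ranks per kb depend on it. Without the division by length, Atp5g1 (4912 bases) exceeded Atp5g2 (1675 bases), at 38.9 against 27.9 CPM. Uqcrq likewise exceeded Uqcr10 in CPM (73.8 against 36.8), and Atp5l stood at 45.1 CPM with a length of 6443 bases.

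Promoters of nuclear members are shown as background, and their part in the levels described below was not tested. Of the 79 tested nuclear members, 64 matched the RefSeq promoter table (GRCm38.p6, 250 bases before to 50 after the start). Both strands were searched for the NRF1 motif (GCGCA, any base, GCGC), the ETS motif CCGGAAG bound by GABP, and the YY1 motif AAGATGGCG, with overlap between motifs allowed. NRF1, GABP and YY1 are known regulators of nuclear respiratory genes. A match to the NRF1 letters was found for 15 of 64 members (23.4%) and 5.2% of all 27025 genes of the table, to the ETS letters for 15 members (23.4%) and 9.9% of genes, and to the YY1 letters for 7 members (10.9%) and 1.6% of genes. Over all 32851 promoters the shares were 4.6%, 8.9% and 1.4%. None of the 3 was found for 32 members. The matches are strings of letters and not shown to be bound. Promoters of 5 members follow, with the matched letters, or their reverse complement, in capitals: Ndufs8 for the ETS letters, Ndufs6 for NRF1 and YY1, Uqcrc1 for 2 NRF1 matches, and Cox6a1 and Atp5k for NRF1 with ETS.
Ndufs8, chr19:3912725-3913024 (- strand): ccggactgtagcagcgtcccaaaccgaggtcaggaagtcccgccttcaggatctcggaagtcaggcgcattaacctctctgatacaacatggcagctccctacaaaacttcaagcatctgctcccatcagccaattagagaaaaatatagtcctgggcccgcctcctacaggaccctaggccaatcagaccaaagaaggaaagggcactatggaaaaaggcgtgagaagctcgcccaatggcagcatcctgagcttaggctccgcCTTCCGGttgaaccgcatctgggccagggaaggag
Ndufs6, chr13:73328433-73328732 (- strand): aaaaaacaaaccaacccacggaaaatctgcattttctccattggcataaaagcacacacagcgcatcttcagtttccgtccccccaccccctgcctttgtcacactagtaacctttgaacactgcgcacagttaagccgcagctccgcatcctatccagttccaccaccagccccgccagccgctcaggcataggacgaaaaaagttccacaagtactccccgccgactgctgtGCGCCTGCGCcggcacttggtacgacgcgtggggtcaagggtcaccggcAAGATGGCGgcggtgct
Uqcrc1, chr9:108936398-108936697 (+ strand): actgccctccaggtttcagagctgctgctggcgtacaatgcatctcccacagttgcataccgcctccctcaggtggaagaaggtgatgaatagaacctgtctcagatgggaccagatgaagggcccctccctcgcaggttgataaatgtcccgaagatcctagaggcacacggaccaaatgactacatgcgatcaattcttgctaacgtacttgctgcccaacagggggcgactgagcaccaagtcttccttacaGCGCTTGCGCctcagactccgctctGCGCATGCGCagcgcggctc
Cox6a1, chr5:115348909-115349208 (- strand): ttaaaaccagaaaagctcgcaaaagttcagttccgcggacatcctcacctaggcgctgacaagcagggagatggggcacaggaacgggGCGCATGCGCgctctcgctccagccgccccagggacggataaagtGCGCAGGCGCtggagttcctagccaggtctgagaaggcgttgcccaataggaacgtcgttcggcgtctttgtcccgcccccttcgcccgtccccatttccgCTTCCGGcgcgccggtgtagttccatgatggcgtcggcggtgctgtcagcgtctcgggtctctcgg
Atp5k, chr5:108434350-108434649 (- strand): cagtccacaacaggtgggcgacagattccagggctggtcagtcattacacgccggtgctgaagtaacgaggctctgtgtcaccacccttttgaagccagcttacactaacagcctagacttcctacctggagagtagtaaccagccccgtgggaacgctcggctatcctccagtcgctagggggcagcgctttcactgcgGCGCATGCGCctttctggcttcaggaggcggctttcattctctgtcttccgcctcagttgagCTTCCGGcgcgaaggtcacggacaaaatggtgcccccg

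Without IVIg, nuclear members had higher values in both knockouts than in WT, and no single member passed the edgeR test. Ndufs8, an iron-sulfur core subunit of complex I on chromosome 19 (GRCm39, 3958863 to 3962774), stood at 61.3, 49.9 and 48.3 CPM in the WT PBS libraries, at 71.2, 68.8 and 73.9 in the Dectin-1 knockout and at 74.5, 117 and 144 in the FcgRIIb knockout. All libraries of each knockout lay above all WT libraries. The log2 fold change was 0.42 ± 0.28 (SE) in the Dectin-1 knockout (edgeR adjusted p = 0.909) and 1.06 ± 0.29 in the FcgRIIb knockout (adjusted p = 0.476). Cox7b, a small subunit of complex IV on chromosome X (105059306 to 105066056), stood at 57.0, 49.7 and 44.1 CPM in WT, at 71.5, 63.0 and 89.5 in the Dectin-1 knockout and at 72.9, 148 and 152 in the FcgRIIb knockout. The groups again did not overlap, with log2 fold changes of 0.57 ± 0.33 (adjusted p = 0.909) and 1.24 ± 0.35 (adjusted p = 0.476). The p-values of edgeR measure the spread between these mice only, and both comparisons share the WT libraries.

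In the Dectin-1 knockout with PBS all 79 nuclear members had a log2 fold change above 0, with a median of 0.49, against 47.7% of all tested genes and a median of -0.02. For 60 of 79 the 3 knockout libraries lay above the 3 WT libraries, against 7.92% of all genes. By edgeR 0 members were called (0.0411% of all genes were), 5 had an unadjusted p under 0.05 (4.03% of all genes), and DESeq2 and limma voom called 0, with 3 and 32 members at an unadjusted p under 0.05. Here and below, the share of all genes at an unadjusted p under 0.05 is not given for DESeq2 and limma voom. Their counts of members at that threshold therefore have no background to be read against. Medians were alike across complexes, at 0.46 for 38 genes of complex I, 0.45 for 8 of complex III, 0.57 for 15 of complex IV and 0.49 for 18 of complex V. Within complex I the 7 nuclear core subunits, which carry flavin or iron-sulfur clusters or bind ubiquinone, had a median of 0.22 and the 31 other subunits 0.51. The smallest p of each complex belonged to Ndufb4 (1.08 ± 0.38), Uqcr10 (0.74 ± 0.40), Cox6a2 (3.44 ± 1.63, from 121 counts in all libraries) and Atp5g1 (0.70 ± 0.32), on the log2 scale with SE.

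The mitochondrial genes did not show this. The 5 mitochondrial members called uncopied here (mt-Nd1, mt-Nd2, mt-Nd5, mt-Nd6 and mt-Cytb) matched no annotated nuclear copy in the search described below. They had a median log2 fold change of -0.09 in the Dectin-1 knockout with PBS, with 2 of 5 above 0. Of 13 mitochondrial members 0 were separate between the groups in either direction (8.4% of all genes were separate with the knockout lower). The uncopied genes summed to 3321, 3133 and 2234 CPM in WT and to 2450, 2615 and 3033 CPM in the knockout, while the nuclear members summed to 7012, 6478 and 5364 CPM in WT and 7942, 7628 and 9193 CPM in the knockout. The nuclear sums did not overlap and the mitochondrial sums did. The ratio of all mitochondrial to all nuclear member counts was 1.03, 1.08 and 0.919 in WT and 0.666, 0.743 and 0.643 in the knockout. T cell markers (Cd3e, Cd3d, Cd3g, Thy1, Trac and Lck) summed to 6.80 to 10.02 CPM in WT and 3.88 to 3.94 CPM in the knockout, with 5 of 6 below 0 in log2 fold change and a median of -1.26. Their part in the nuclear difference was not tested. In bulk RNA, fewer cells of a type and less RNA per cell cannot be told apart.

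In the FcgRIIb knockout with PBS 78 of 79 nuclear members had a log2 fold change above 0 (46.8% of all genes), with a median of 0.95 against -0.05 for all genes. For 30 the groups did not overlap with the knockout higher (3.63% of all genes), for Cox7a1 (201 counts in all) they did not overlap with it lower (7.95% of all genes), and 64 of 92 members, 60 of them nuclear, had an unadjusted p under 0.05 (9.64% of all genes). After adjustment edgeR and limma voom called 0 members and 0 of all genes (52 members at an unadjusted p under 0.05 in limma voom). DESeq2 called 11 members (57 at an unadjusted p under 0.05), against 179 of all genes (1.05%). The 11 were Cox5b, Cox7b, Cox7c, Ndufa3, Ndufa4, Ndufb1, Ndufb5, Ndufc1, Ndufs8, Uqcrb and Atp5mpl, with Cox7b at a DESeq2 adjusted p of 0.0323. Of these, Ndufa3, Ndufa4, Ndufb1, Ndufb5, Ndufc1, Uqcrb and Atp5mpl had their highest CPM of all 18 libraries in replicate 2 of this knockout, which held 719494 counts. Ndufb5 stood at 56.2, 260 and 143 CPM in replicates 1, 2 and 3, with 184 counts in replicate 2. By complex the medians were 0.91 (I), 1.01 (III), 1.06 (IV) and 0.94 (V). Uqcrb, the ubiquinone-binding protein of complex III, had a log2 fold change of 1.26 ± 0.43, and Atp5k, the e subunit of complex V, 1.37 ± 0.44. Ndufs1, the largest core subunit of complex I, stood lower in this order at 0.17 ± 0.20, and Atp5a1 at 0.26 ± 0.26.

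These values rested on single libraries. The median nuclear level, as log2 CPM relative to the mean of the 18 libraries, was -0.13, 0.10 and 1.02 in the 3 FcgRIIb knockout PBS libraries and -0.23, -0.44 and -0.63 in WT. Replicate 3 was the highest of all 18 libraries. Without it the median fold change was 0.43 and 6 nuclear members had an unadjusted p under 0.05 (2.37% of all genes), and without replicate 1, the lowest, the median was 1.26 and edgeR called Ndufa4. The shallow replicate 2 had the highest uncopied mitochondrial level of all libraries, at 1.53, beside -0.36 and 0.13 in the other 2. The uncopied median fold change was 0.87 with it and 0.06 without it, beside nuclear medians of 0.95 and 1.02. Leaving out replicates 2 and 3 together, chosen after seeing the data, gave 0.30 for the nuclear and -0.22 for the uncopied mitochondrial members. Plasma cell markers (Jchain, Mzb1, Igkc, Xbp1 and Sdc1) summed to 735 to 2234 CPM in these FcgRIIb knockout libraries and 424 to 476 CPM in WT. Their part in the result was not tested.

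**Figure D1:**
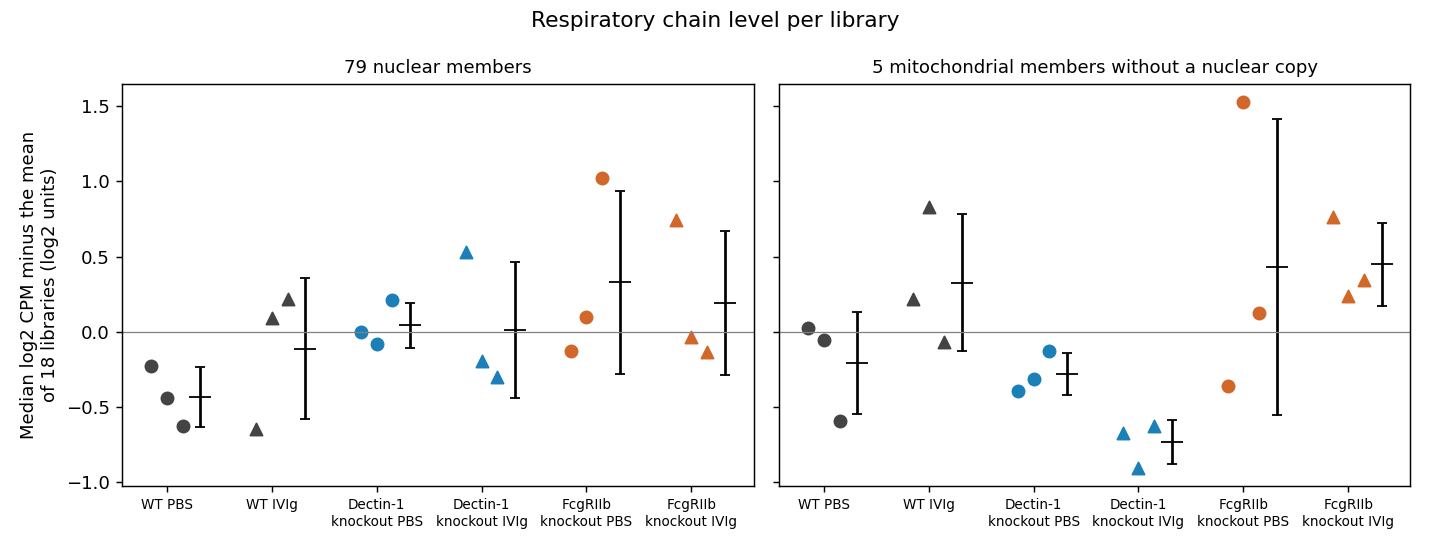
Median level of 79 nuclear members (left) and of 5 mitochondrial members with no annotated nuclear copy found (right) in each library, as log2 CPM minus the mean over the 18 libraries, by group, with circles for PBS, triangles for IVIg, and black marks for the group mean and SD (n = 3). Nuclear levels ran from -0.65 to 1.02 and overlapped among most groups, while the 3 Dectin-1 knockout IVIg libraries had the lowest mitochondrial levels, from -0.90 to -0.63.

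With IVIg the mitochondrial genes had lower values in the Dectin-1 knockout than in WT, while nuclear values overlapped, and edgeR called no member. mt-Nd2, a membrane core subunit of complex I (mitochondrial genome, 3914 to 4951), stood at 616, 935 and 572 CPM in WT IVIg libraries and at 273, 245 and 301 CPM in the Dectin-1 knockout. mt-Cytb, the cytochrome b of complex III (14145 to 15288), stood at 1038, 1448 and 924 CPM in WT and 600, 509 and 589 CPM in the knockout. mt-Nd1, which helps form the ubiquinone site of complex I (2751 to 3707), stood at 806, 1465 and 751 CPM in WT and 499, 393 and 448 CPM in the knockout. In these genes every knockout library lay below every WT library. Log2 fold changes were -1.37 ± 0.40 for mt-Nd2 (edgeR adjusted p = 0.690), -1.01 ± 0.35 for mt-Cytb (adjusted p = 1) and -1.17 ± 0.37 for mt-Nd1 (adjusted p = 0.823), with 3 mice in each group.

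All 13 mitochondrial members had a log2 fold change below 0 in that comparison (52.7% of all genes), and for 6 the groups did not overlap (3.7% of all genes), namely mt-Nd1, mt-Nd2, mt-Nd4, mt-Nd5, mt-Cytb and mt-Co1, a core subunit of complex IV. These were also the 6 members at an unadjusted p under 0.05 (3.46% of all genes). By edgeR 0 members were called (0.0528% of all genes were), by DESeq2 0 (7 at an unadjusted p under 0.05), and by limma voom 1 of 92 (8 at an unadjusted p under 0.05) against 11 of all genes (0.0646%), mt-Nd2 at -1.30 ± 0.23 (adjusted p = 0.0271). Without the shallow library of the FcgRIIb knockout edgeR called mt-Nd2 (adjusted p = 0.0334) and mt-Nd4 (adjusted p = 0.0497), among 9 of 18068 genes called. The uncopied median was -1.01, and it ran from -1.22 to -0.80 when each library was left out in turn. The 79 nuclear members had a median of 0.09, which ran from -0.20 (without Dectin-1 knockout IVIg replicate 1) to 0.25 (without WT IVIg replicate 3), with 62 above 0 (47.1% of all genes), 0 separate between the groups (2.52% of all genes were with the knockout higher) and medians of 0.08, 0.04, 0.12 and 0.10 for complexes I, III, IV and V. Without the most alike WT pair the nuclear median was -0.11 and the median of the 13 mitochondrial members -0.99. Among the 5 uncopied genes mt-Nd6, the only one on the light strand, differed least (-0.63 ± 0.49), with overlap between the groups. The count command named no strand, so the mt-Nd6 counts may hold reads from the opposite strand, and a difference between strands was not tested.

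Within the Dectin-1 knockout the mitochondrial genes were also lower with IVIg than with PBS. All 13 had a log2 fold change below 0 (46.9% of all genes), 8 were separate between the groups (4.42% of all genes), and the uncopied median was -0.39, against -0.01 for the nuclear members, of which 0 were separate (4.37% of all genes were with IVIg higher). The 8 included mt-Nd3, mt-Co3 and mt-Atp8, which had few counts and uncertain fold changes (described below). Of the 5 uncopied members 3 were separate. With each library left out in turn the uncopied median ran from -0.54 to -0.31, and the nuclear median from -0.30 (without Dectin-1 knockout IVIg replicate 1) to 0.15 (without Dectin-1 knockout IVIg replicate 3). By edgeR 0 of 92 members had an unadjusted p under 0.05 in this comparison (3.27% of all genes), by DESeq2 1 and by limma voom 3. Called members were 0 in edgeR, DESeq2 and limma voom, against 0, 2 and 0 of all genes. In WT the same contrast gave medians of 0.53 for the uncopied and 0.37 for the nuclear members, the latter with 77 of 79 above 0 (51.1% of all genes) and 1 separate (3.44% of all genes). There edgeR called 0 of 92 members (0.00587% of all genes) and gave 1 an unadjusted p under 0.05 (2.51% of all genes), Cox6a2, while DESeq2 and limma voom called 0 and gave 0 and 34. The difference between the IVIg effects of the 2 genotypes, tested as an interaction, was -0.92 in the median of the uncopied genes, below 0 in 5 of 5 (50% of all genes), and -0.37 in the median of the nuclear genes. Of 92 members edgeR, DESeq2 and limma voom called 0, against 0, 1 and 0 of all genes. At an unadjusted p under 0.05 stood 2 members in edgeR (3.74% of all genes), 2 in DESeq2 and 43 in limma voom. The share of all genes at that threshold is not given for DESeq2 and limma voom. Leaving out WT IVIg replicate 3 gave a WT nuclear median of 0.19, leaving out WT IVIg replicate 1 gave 0.57, and removing each library's trend with gene length (described below) gave 0.19. The WT uncopied median was 0.28 without WT IVIg replicate 2. With the length trend removed the interaction was -0.67 for the uncopied and -0.20 for the nuclear genes. The nuclear shift was not particular to the members. Without that removal, cytosolic ribosomal protein genes had a median of 0.40 after IVIg in WT (90 of 100 above 0). In the interaction their median was -0.40 (96 of 100 below 0). For 78 mitochondrial ribosomal protein genes the medians were 0.22 and -0.27.

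The ratio of mitochondrial to nuclear counts was 0.414, 0.603 and 0.749 in the Dectin-1 knockout IVIg libraries and 1.56, 1.197 and 0.735 in WT IVIg libraries, with overlap only through WT replicate 3. Neutrophil markers (S100a8, S100a9, Retnlg, Ly6g, Mpo and Elane) summed to 319, 751 and 47.1 CPM in the same knockout libraries and to 3.61 to 40.8 CPM in WT. Replicate 3 of the knockout, the lowest of its group in these markers, had an uncopied mitochondrial level of -0.63, beside -0.67 and -0.90 in replicates 1 and 2, and 0.22, 0.83 and -0.07 in WT. Total counts were 16996494 to 45510768 in the knockout and 40561626 to 48958909 in WT. The plasma cell markers named above summed to 398 to 428 CPM in the knockout and 335 to 807 CPM in WT, with 5 of 5 below 0 in log2 fold change and a median of -0.66. The part of neutrophil and plasma cell transcripts in the result was not tested.

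In the FcgRIIb knockout IVIg was followed by a nuclear median of -0.26 and an uncopied mitochondrial median of -0.19, and both turned positive when a PBS library was left out, to 0.24 without replicate 3 for the nuclear and to 0.65 without replicate 2 for the uncopied members. By edgeR 0 members were called (0 of all genes were), with 3 at an unadjusted p under 0.05 (3.19% of all genes). DESeq2 gave 2 and limma voom 6 at that threshold, and both called 0 members (13 and 0 of all genes). With IVIg given to both genotypes, the FcgRIIb knockout against WT had a nuclear median of 0.30 (74 of 79 above 0, 48.1% of all genes) and an uncopied median of 0.10 (4 of 5 above 0), with 0 of 92 members called (0.0117% of all genes were) and 5 at an unadjusted p under 0.05 (5.45% of all genes), against 1 in DESeq2 and 6 in limma voom, both with 0 called. The nuclear median was -0.06 without FcgRIIb knockout IVIg replicate 1 and the uncopied median -0.07 without WT IVIg replicate 3. With the length trend removed the medians were 0.068 (49 of 79 above 0) and -0.19 (0 of 5 above 0). T cell markers summed to 10.7 to 20.7 CPM in this knockout and 3.61 to 7.31 CPM in WT, and plasma cell markers to 754 to 2062 CPM and 335 to 807 CPM, and their part in the result was not tested. The interaction against WT gave a nuclear median of -0.61 and an uncopied median of -0.71, which were -0.13 without FcgRIIb knockout PBS replicate 3 and 0.064 without FcgRIIb knockout PBS replicate 2, and -0.36 and -0.50 with the length trend removed. Of 92 members edgeR, DESeq2 and limma voom called 0, against 0, 1 and 0 of all genes. At an unadjusted p under 0.05 stood 3 members in edgeR (2.86% of all genes), 3 in DESeq2 and 38 in limma voom.

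**Figure D2:**
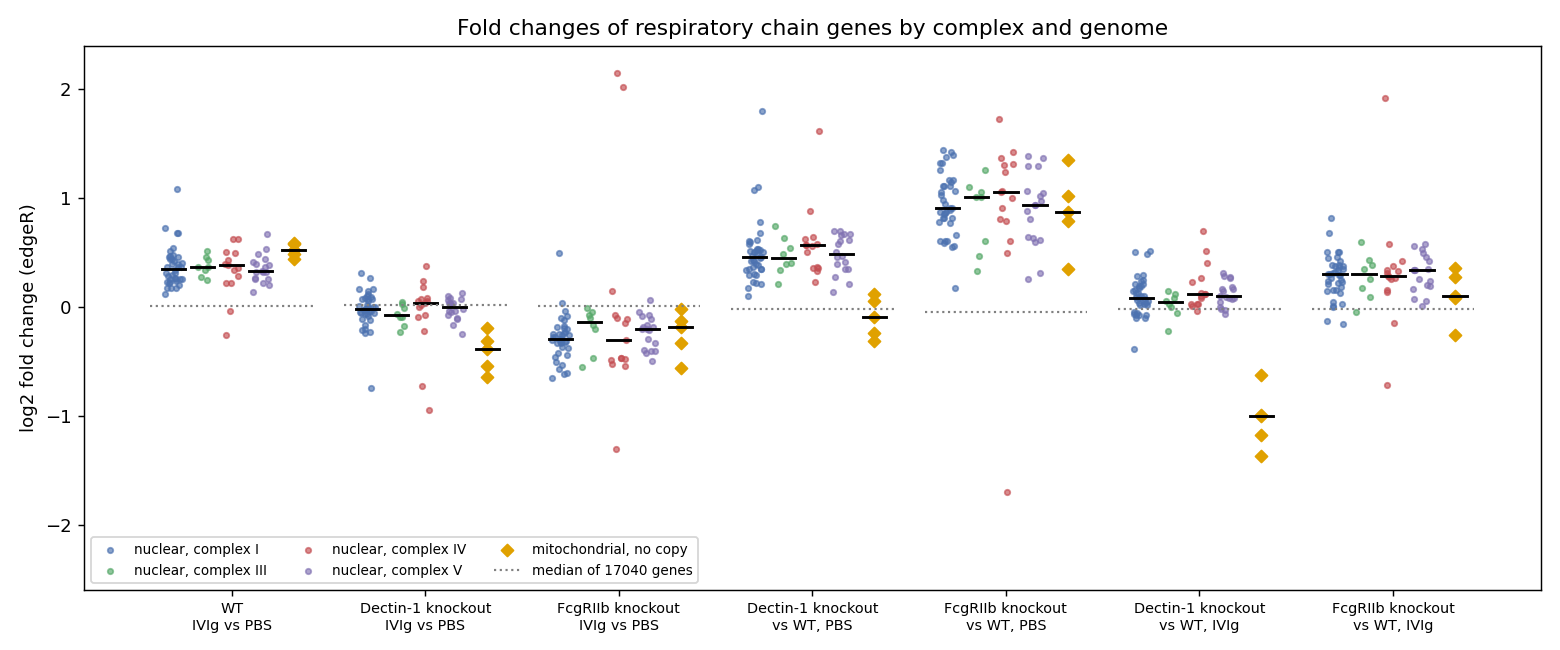
Log2 fold changes (edgeR) of tested nuclear members by complex and of 5 mitochondrial members with no annotated nuclear copy found, in 7 comparisons. Each point is a gene, black bars are medians of the points and dotted lines the median of 17040 genes; Cox6a2, at 3.37 and 3.44 in 2 comparisons, lies outside the axis. The complexes shift together within a comparison. With all libraries kept, the mitochondrial genes part from them in the Dectin-1 knockout, at a median of -1.01 with IVIg. Without FcgRIIb knockout PBS replicate 2 (not drawn) they also part in the FcgRIIb knockout with PBS, at 0.06 against a nuclear median of 1.02.

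The nuclear level of a library followed gene length. For each library the Spearman rho between gene length and expression, relative to the mean of the 18 libraries, was computed over 5209 abundant genes (at least 5 average log2 CPM) that are not members. It ran from -0.65 in FcgRIIb knockout PBS replicate 3, where short genes were relatively high, to 0.57 in WT IVIg replicate 1. Across the 18 libraries this length tilt and the median nuclear level had a Pearson r of -0.941 and a Spearman rho of -0.965, and r was -0.926 without the 2 libraries farthest from the median tilt. Taken as deviations from the group means, r was -0.962. The 16 nuclear members with a deposited exon length of 3000 bases or more followed the tilt as the 14 under 750 bases did, with r of -0.907 and -0.935. Single genes had a median r of -0.838, and 73 of 79 were below -0.5, the exceptions being Ndufs1, Ndufv3 and the rarely counted Cox6a2, Cox6b2, Cox6c2 and Cox7a1. The uncopied mitochondrial level had an r of -0.324 with the tilt and of 0.257 with the nuclear level (-0.167 and 0.152 within groups). All of these are descriptions without a test, since the values come from the same libraries and share depth and scaling.

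**Figure D3:**
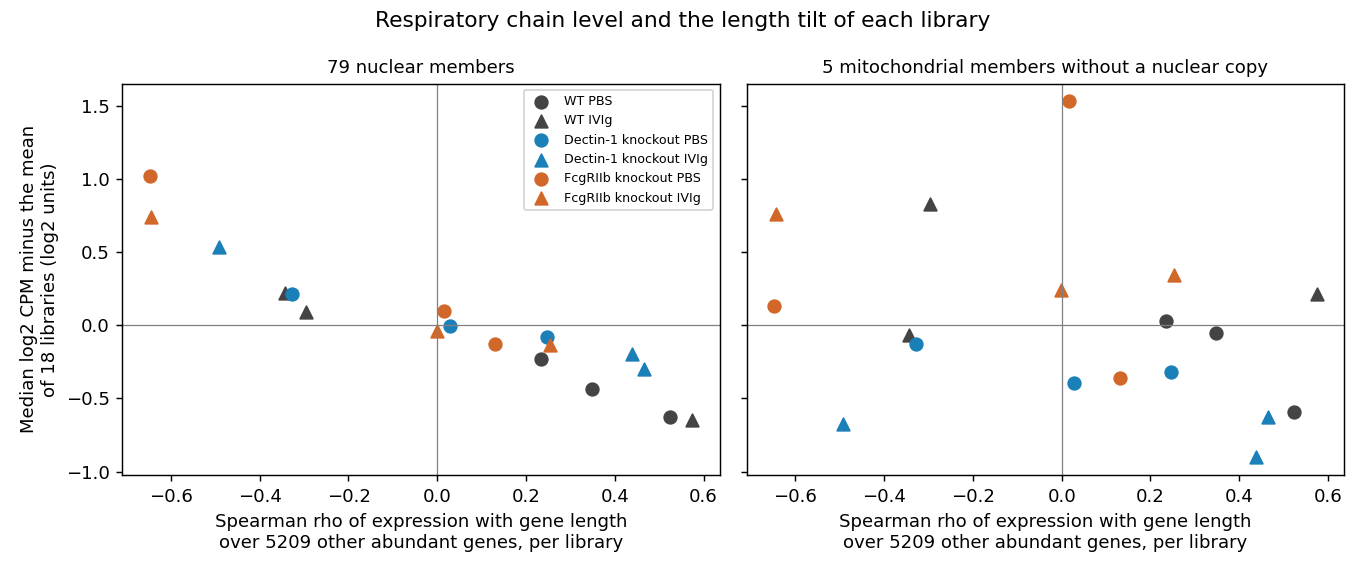
Median level of 79 nuclear (left) and 5 uncopied mitochondrial members (right) in each of the 18 libraries against the length tilt of the library, the Spearman rho of relative expression with gene length over 5209 other abundant genes. Nuclear levels lie along a falling line (r = -0.941), and mitochondrial levels do not (r = -0.324).

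Nuclear members are short, with a median length of 1495 bases against 3457.5 for all tested genes, and the mitochondrial members shorter still, at 784. In the FcgRIIb knockout with PBS the median log2 fold change of abundant nuclear members was 1.11 under 750 bases, 1.0005 at 750 to 1500, 0.81 at 1500 to 3000 and 0.74 at 3000 or more, and that of all abundant genes in the same bins was 0.69, 0.61, 0.28 and -0.15. In the Dectin-1 knockout with PBS the values were 0.61, 0.43, 0.47 and 0.35 for members and 0.30, 0.30, 0.16 and -0.06 for all. Members lay above genes of like deposited length in each bin. That length is the union of a gene's annotated exons and can exceed the length of its messenger RNA. Ndufb7 at 4522 and Atp5l at 6443 bases stand in the longest bin on this measure. The bins and the removal of the length trend below therefore do not match genes by transcript length. Across the 79 nuclear members the Spearman rho of fold change with length was -0.409 and -0.403 in these comparisons (genes are not independent replicates). When each library's length trend was removed, the nuclear medians were 0.43 and 0.29, against -0.14 and -0.06 for all genes, 0 members were called, and 28 and 6 nuclear members had an unadjusted p under 0.05 (8.94% and 4.37% of all genes). The uncopied mitochondrial median in the Dectin-1 knockout against WT with IVIg was -1.02 after that step and -1.01 before it. With PBS it was -0.34 after and -0.09 before.

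**Figure D4:**
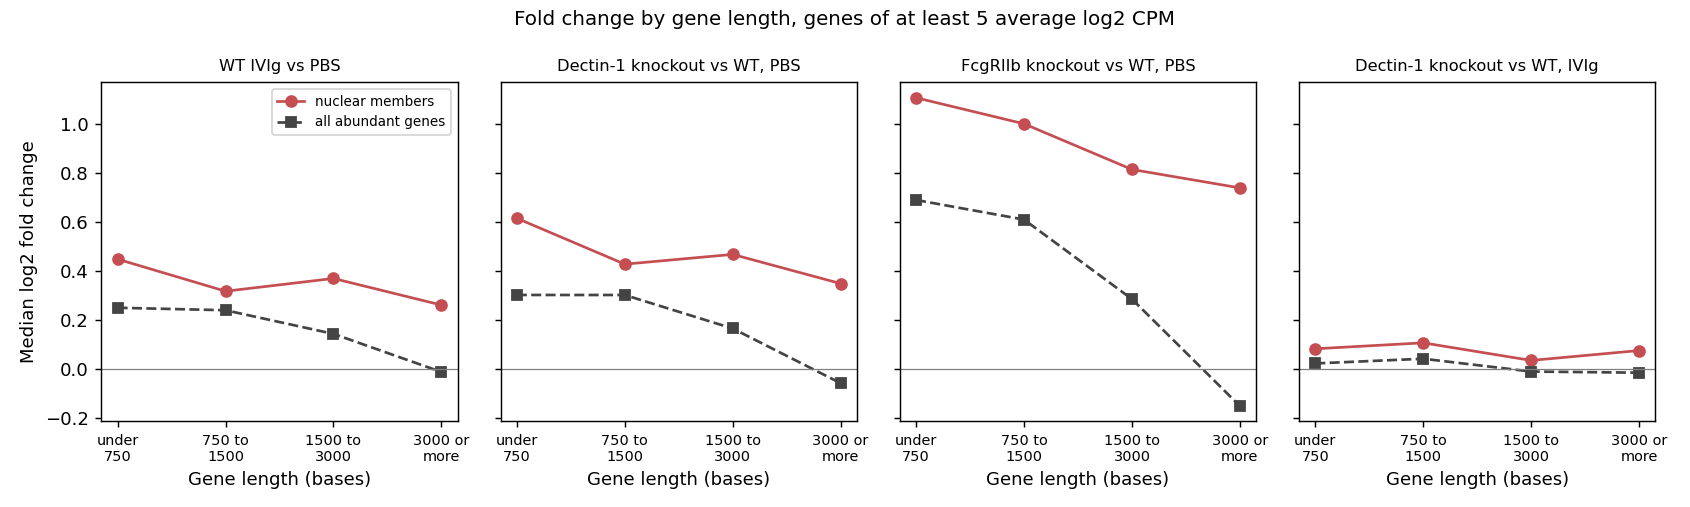
Median log2 fold change of nuclear members (red circles) and all genes (grey squares) of at least 5 average log2 CPM by gene length in 4 comparisons, with 10, 21, 20 and 14 members in the bins. Short genes are higher in 3 comparisons and members lie above all genes of their bin, at 1.0005 against 0.61 at 750 to 1500 bases in the FcgRIIb knockout with PBS.

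Lists of other nuclear genes of the pathway differed in how far they moved from 0. In the FcgRIIb knockout with PBS, 74 of 78 mitochondrial ribosomal protein genes and 91 of 100 cytosolic ribosomal protein genes were above 0, with medians of 0.62 and 0.86, and complex II had 3 of 4 genes above 0 and a median of 0.50. Assembly factors had medians of 0.54 (13 genes, complex I), 0.51 (6, complex III), 0.43 (16, complex IV) and 0.21 (3, complex V), and the tricarboxylic acid cycle 0.28 (12 genes). Of these lists 0 genes were called by edgeR, which called 0 of all genes in this comparison. In the Dectin-1 knockout with PBS the medians were 0.28 for mitochondrial and 0.41 for cytosolic ribosomal proteins and 0.43 for complex II. Genes of mitochondrial DNA, transcription and RNA had medians of 0.07 (7 of 13 above 0) in the Dectin-1 and 0.32 (8 of 13) in the FcgRIIb knockout with PBS, and -0.04 in the Dectin-1 knockout against WT with IVIg. In that last comparison Tfam, which packages mitochondrial DNA, gave 0.06 ± 0.27, Polrmt, the mitochondrial RNA polymerase, 0.25 ± 0.33 and Lrpprc, which stabilises mitochondrial messenger RNA, -0.09 ± 0.25. The 8 regulators of nuclear members had medians of -0.05 and -0.10 in the Dectin-1 and FcgRIIb knockouts with PBS, with 3 of 8 above 0 in each. Among them Nrf1 gave 0.02 ± 0.20 and 0.01 ± 0.22 and Gabpa -0.08 ± 0.17 and -0.37 ± 0.18 in the Dectin-1 and FcgRIIb knockouts with PBS. The 15 members with the NRF1 letters had a median of 1.03 in the FcgRIIb knockout with PBS and the 49 without 0.91, and with and without the ETS letters the medians were 1.06 and 0.91. In the Dectin-1 knockout with PBS the medians with and without the ETS letters were both 0.47, and after IVIg in WT the 7 members with the YY1 letters had a median of 0.25 and the 57 without 0.37.

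The mitochondrial members had to be divided because a stretch of chromosome 1 (GRCm39, 24650616 to 24655278) holds gene models that copy them. Transcripts of 5 members matched a copy over 99% or more of their length at 99% identity or more (mt-Co2, mt-Atp6, mt-Co3, mt-Nd3 and mt-Nd4l), mt-Co1 matched over 31.3% and mt-Nd4 over 63.6%. No match was found for mt-Atp8, which lies between copied genes and was set apart for that. Only annotated transcripts of genes in the count table were searched, for matches of at least 100 bases. Other nuclear copies would not be seen, so uncopied means only that no match was found. The 5 copied members and mt-Atp8 had 212 to 3655 counts over all libraries, and the other 7 had 210817 to 1982562, and how reads shared with a copy were assigned was not tested, so the levels and fold changes of the 6 are uncertain. mt-Nd3 and its copy Gm28438 differ by T3C (base counted from the first of the mt-Nd3 transcript, the mitochondrial base first), shown in capitals in the first 80 bases.
mt-Nd3: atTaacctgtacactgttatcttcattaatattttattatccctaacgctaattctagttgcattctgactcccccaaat
Gm28438: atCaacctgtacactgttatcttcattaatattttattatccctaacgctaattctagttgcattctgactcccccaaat

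At these genes the libraries fell into 2 kinds. WT PBS replicates 1 and 2 and WT IVIg replicate 2 had 8, 3 and 2 counts of mt-Nd3 and 357, 373 and 282 of Gm28438. The other 15 libraries had 12 to 326 counts of mt-Nd3 and 1 to 15 of Gm28438. The mitochondrial sequence carried by each mouse is not given in the labels, and its part in this division was not tested. The 3 libraries were all WT, and their uncopied mitochondrial levels were 0.03, -0.06 and 0.83. The fold changes of mt-Nd3 against WT (0.97 ± 0.84 in the Dectin-1 knockout with PBS) rest on this division.

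**Figure D5:**
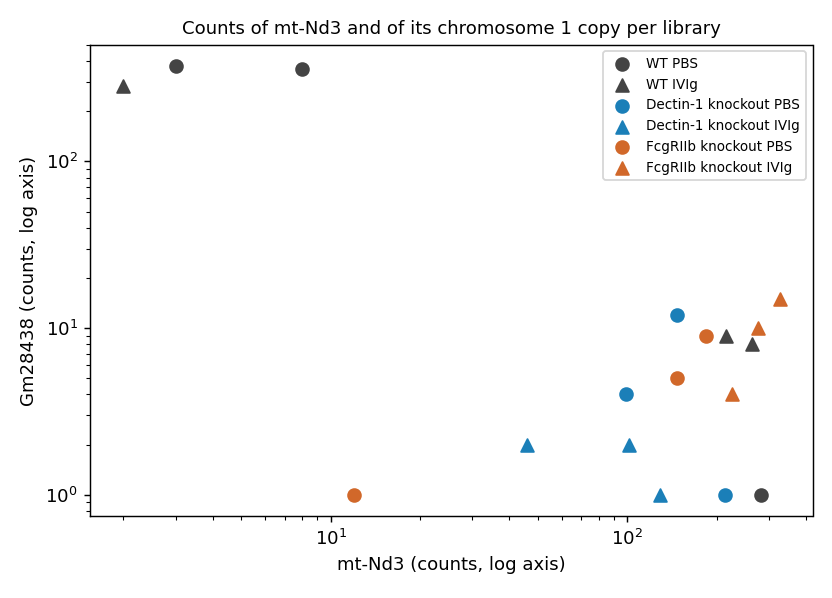
Counts of mt-Nd3 against counts of Gm28438, its copy on chromosome 1, in the 18 libraries, both on log axes, coloured by genotype with circles for PBS and triangles for IVIg. The 3 WT libraries at the upper left have 2 to 8 counts of mt-Nd3 and 282 to 373 of the copy, and the others at most 15 of the copy.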

How the data were processed

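Libraries of 18 mice were made with a strand-keeping mRNA kit according to the labels. STAR, featureCounts and GRCm39 are named in the submitters' processing notes. The authors deposited raw counts per gene made with featureCounts 2.0.2 on Ensembl genes, with each gene's exon length in bases, per the file headers. The command in the header assigns reads to each overlapping gene and names no strand, which leaves overlapping genes and antisense partners undivided. Of the deposited columns 18 match no sample and were not used, and 1492 genes without a symbol stayed in the totals. Replicates are numbered by accession.

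From the deposited counts, genes passing filterByExpr received TMM factors and then edgeR's quasi-likelihood test (edgeR 4.0.16 under R 4.3.3, legacy = FALSE) in 1 model of 6 group means (12 residual degrees of freedom) for 9 comparisons, with a call at a Benjamini-Hochberg adjusted p under 0.05 over all tested genes. DESeq2 1.42.0 and limma voom with quality weights (limma 3.58.1) were alternatives, as were RLE scaling, other filters, the legacy fit, own groups only, totals without some genes, removal of each library's length trend (natural spline, 4 degrees of freedom) and each library left out. Log2 CPM used a prior count of 2. Groups did not overlap where all CPM of one group lay above all of the other. Mitochondrial transcripts (GENCODE M21) were compared with other transcripts by blastn 2.17.0 (at least 100 bases). Figures were drawn with matplotlib 3.10.9. In counts simulated for the Dectin-1 knockout against WT with IVIg (16395 genes), 47 of 62 genes changed 4-fold, 2 of 66 changed 2-fold and 0 of 66 changed 1.5-fold were called, with 11 of 16201 unchanged genes.

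Named genes were all mitochondrial members, Ndufs8, Cox7b, genes for 1 subunit, the most and least abundant per kilobase of each complex, and the member with the smallest p of each complex and comparison. The members and lists were chosen with earlier results of these data known. Further lists of markers of other cell types are not reported here.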

Additional observations from a re-analysis of the deposited data

How the results depend on the processing

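No paired analysis was possible because the replicate numbers were given by accession and pair no animals. Of 846 values for member counts and medians under 33 other settings, 824 stayed within the spread between libraries or 1.5 times the count. The cause of the other values was not tested. That spread was an SD of 0.43 in log2 for nuclear and for mitochondrial medians, as large as many of the medians. A median could therefore change sign and still count as unmoved, as could a count of 0 that stayed 0. The 824 do not show that the medians are stable. For called members, DESeq2 gave 11 in the FcgRIIb knockout against WT with PBS (1.05% of all genes) and limma voom 1 in the Dectin-1 knockout against WT with IVIg (0.0646% of all genes). Leaving out 1 library gave 0 to 1 in the former and 0 to 2 in the latter, and leaving out FcgRIIb knockout PBS replicates 2 and 3 together, chosen after seeing the data, gave 1 in the latter.

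In the FcgRIIb knockout against WT with PBS, removal of the centred length trend moved the nuclear median to 0.43 and that of the 13 mitochondrial members to 0.019. Leaving out 1 library gave 0.43 to 1.26 for the nuclear and -0.083 to 0.98 for the mitochondrial members, and without both doubted libraries they were 0.30 and -0.18. For IVIg against PBS in the FcgRIIb knockout, leaving out 1 library gave -0.60 to 0.24 (nuclear) and -0.26 to 0.65 (mitochondrial), leaving out both 0.34 and 0.91, and limma voom a mitochondrial median of 0.41. For the interaction of the FcgRIIb knockout, leaving out 1 library gave -0.96 to -0.13 and -0.70 to 0.18, leaving out both -0.037 and 0.33, and limma voom a mitochondrial median of 0.12. Of 7442 values of 27 named genes, 4 with an unadjusted p under 0.05 changed sign, all in the FcgRIIb knockout against WT with PBS without both doubted libraries: mt-Nd1 to -0.062, mt-Nd2 to -0.22, mt-Nd6 to -0.46 and mt-Cytb to -0.18. A further 10 passed the threshold under another setting, and 337 changed sign at an unadjusted p above 0.05.

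With 3 mice a group, effects of 2-fold were seldom called in simulated counts, so a missing call does not show that a gene did not differ. The copied mitochondrial members had few counts, and their values are uncertain.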
